A study of Mus musculus with 24 samples.

Results

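Matricellular and fibrillar matrix genes were followed in 10 members chosen by name, Fn1, Sparc, Tnc, Postn, Spp1, Vcan, Fbn1, Eln, Lox and Loxl2, out of 55421 mouse genes in the deposited count table. They were chosen with earlier results of these data known, so their counts and medians set beside those of all genes are descriptions only. All 10 had counts in each of the 8 groups and passed the filter on low counts, with a mean of at least 10 counts per library in every group. The samples were type 2 alveolar epithelial cells (AEC2s), the surfactant-producing progenitors of the alveolus, from Krt8+/+ (WT) mice and from Krt8-/- (KO) mice, in which the gene of keratin 8 is deleted in the whole animal. RNA was taken from freshly isolated cells (day 0, written D0 in the labels) and from cells on days 1, 3 and 7 (D1, D3 and D7) of 2D culture on laminin over a stiff support, and no drug was given to any group. Each genotype and day was sampled in 3 isolations made on 3 dates, which gave 24 libraries. The age, the strain and the number of mice in an isolation could not be learned from the labels or the paper.

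Fibrillar matrix is built from secreted proteins that assemble outside the cell: fibronectin forms fibrils at integrin receptors, fibrillin-1 microfibrils scaffold elastin, and lysyl oxidases crosslink elastin and collagen. Matricellular proteins such as SPARC, tenascin-C, periostin and osteopontin are secreted into the same space but act mainly on cell adhesion, migration and matrix assembly. In the lung most of this matrix is made by fibroblasts, and epithelial cells in repair are known to make fibronectin and tenascin-C.

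Library totals ranged from 10184439 to 19483386 counts. Krt8 lay at 485 to 552 CPM, counts scaled to the size of the library by TMM factors, in WT cells on day 0 and at 2599 to 5092 CPM in culture, against 21.2 to 47.5 CPM in the KO libraries. The 8 AEC2 markers summed to between 187000 and 257200 CPM on day 0 and to between 188 and 289 CPM on day 7, so the cells of later days no longer carried the AEC2 profile of their label. The epithelial marker Epcam, an adhesion protein, stood at 295 to 376 CPM on day 0 and 134 to 300 CPM on day 7. Of the 5 epithelial markers 2 were higher and 2 lower on day 7 than on day 0 in each genotype: in WT cells the keratins Krt18 and Krt19 went from 285 to 3279 and from 178.5 to 1540 CPM, and the lung epithelial factor Nkx2-1 from 591 to 66.2 CPM. Of the 8 markers of type 1 cells (AEC1s), the flat cells that AEC2s give rise to, 6 were higher in each genotype and 1 in WT and 2 in KO cells were lower, while their sum was 2295 to 2961 CPM on day 0 and 1429 to 2623 CPM on day 7 in WT libraries and 3142 to 3508 and 1491 to 2211 CPM in KO libraries. Since the RNA came from whole cultures, a change in a gene per cell and a change in the share of cells that express it cannot be told apart. Xist and genes of the Y chromosome differed between the WT and KO libraries of isolation 1 and matched in isolations 2 and 3. Isolations 2 and 3 differed from each other: on day 0, 4 of these 5 genes were at 0 in isolation 2 in each genotype, and 0 in isolation 3. The part of sex in any difference between genotypes or isolations was not tested.

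The regions before the transcription start are shown for Fbn1 and Vcan, whose courses over the 8 groups were the most alike of all pairs of members, and for Postn. Postn was not called higher than on day 0 until day 3 in WT cells and day 7 in KO cells (edgeR, adjusted p under 0.05). On day 1 this does not set it apart, as Fbn1 was not called in either genotype, nor Vcan in KO cells. On day 3 in KO cells Postn was the only member not called (adjusted p = 0.0616 in edgeR), though DESeq2 called it (0.0237). The regions are the 250 bases before the start from RefSeq (GRCm38.p6), written 5′ to 3′ on the strand of the gene, and the capitals mark CG pairs and the TATA box letters TATAAA.

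Fbn1, chr2:125506439-125506688, minus strand: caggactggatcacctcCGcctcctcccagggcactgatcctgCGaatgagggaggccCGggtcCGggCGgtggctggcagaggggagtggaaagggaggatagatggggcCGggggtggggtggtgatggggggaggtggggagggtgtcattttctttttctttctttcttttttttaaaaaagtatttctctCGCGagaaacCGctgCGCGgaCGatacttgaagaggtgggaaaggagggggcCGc

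Vcan, chr13:89742513-89742762, minus strand: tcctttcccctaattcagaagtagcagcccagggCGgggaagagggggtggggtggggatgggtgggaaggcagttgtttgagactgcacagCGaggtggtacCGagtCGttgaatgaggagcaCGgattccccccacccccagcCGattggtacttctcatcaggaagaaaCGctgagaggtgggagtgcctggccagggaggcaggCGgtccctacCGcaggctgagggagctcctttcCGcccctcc

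Postn, chr3:54360857-54361106, plus strand: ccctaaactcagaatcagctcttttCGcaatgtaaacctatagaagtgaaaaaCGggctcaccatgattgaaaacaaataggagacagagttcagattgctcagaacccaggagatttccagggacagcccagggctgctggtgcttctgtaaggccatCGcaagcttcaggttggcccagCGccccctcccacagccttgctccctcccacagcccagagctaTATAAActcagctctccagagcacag

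CG pairs and the TATA letters were chosen for display after the sequences were seen, and the RefSeq start of Fbn1 lies inside the longer annotated gene. The Fbn1 and Vcan stretches held 13 and 10 CG pairs, against a median of 6 over the 32851 windows of all genes, while the Postn stretch held 4. RefSeq gives Postn another start, whose window at chr3:54359017-54359266 held 3 CG pairs and no TATA letters. TATAAA, searched on both strands, was absent from the Fbn1 and Vcan stretches and began 26 bases before the Postn start shown, and 12.4% of all windows held it. Windows were found for 6 members (9 windows), namely Fbn1, Vcan, Postn, Tnc, Spp1 and Sparc. TATAAA was not particular to Postn among them. It also began 126 and 205 bases before the RefSeq starts of Tnc, and 211 bases before a start of Spp1. None of the 9 windows, taken at their full 300 bases, held TGANTCA, the letters of an AP-1 site, or GGAATG, those of a TEAD site, on either strand. These letters occurred in 7.81% and 14.7% of all windows, and no match says only that they are not in these bases.

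Levels were first set in order per length, as CPM per kilobase of exon. On day 0 in WT cells Sparc stood at 147 CPM per kilobase, far above Spp1 at 5.37, Fn1 at 3.17, Eln at 2.57 and Lox at 1.03, and the other 5 members were under 1. From Spp1 down, the ranges of neighbours in this order overlapped between libraries. By day 7 in WT cells Fn1 (447), Sparc (432), Spp1 (387) and Lox (326) led without separating from one another, Tnc followed at 60.8, and Loxl2 (10.1), Fbn1 (8.11), Postn (3.62) and Vcan (1.502) lay lower with overlapping ranges. Eln was last at 0.299 CPM per kilobase, below every Vcan library. In KO cells on day 7 the order was Fn1 (587), Sparc (457), Lox (379) and Spp1 (226), then Tnc at 76.2, and Eln was again last at 0.203. Together the members took between 0.0452% and 0.0563% of the counts of a WT library on day 0. The share lay between 0.0614% and 0.109% on day 1, between 0.597% and 0.838% on day 3 and between 0.797% and 1.18% on day 7. In KO libraries the share rose from between 0.0489% and 0.0559% on day 0 to between 1.03% and 1.44% on day 7.

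The first comparison was of each culture day with day 0 in the same genotype, and its 3 contrasts share the day 0 libraries. On day 1 in WT cells 7 of 10 members were called by edgeR, at an adjusted p under 0.05 over 18046 genes (54.7% of all genes were called), 5 of them higher (26.2% of all genes) and 2 lower (28.5%). On day 3 all 10 were called (54%), 9 higher (26.1%) and 1 lower (27.8%), and on day 7 likewise 9 were higher (28.6%) and 1 lower (30.2%) of 10 called (58.8%). The median log2 difference of the members was 1.36, 3.83 and 4.10 on days 1, 3 and 7, against 0.00 for all genes on each day. In KO cells 6 members were called on day 1 (50.6%), 4 higher (23.7%) and 2 lower (26.9%). On day 3 there were 9 (52%), 8 higher (25.4%) and 1 lower (26.6%), and on day 7 there were 10 (58.5%), 9 higher (28.6%) and 1 lower (29.9%), with medians of 0.68, 3.55 and 4.63 for the 3 days against -0.01, -0.01 and 0.00 for all genes. Eln was the lower member on every day in both genotypes, and Sparc the other on day 1. Without isolation 2 the day 1 count in WT cells fell from 7 to 3, as Spp1, Eln, Lox and Vcan lost their calls, and in KO cells from 6 to 4, as Spp1 and Eln lost theirs. The AEC2 markers on day 1 summed to 72880, 13050 and 58290 CPM in isolations 1 to 3 of WT cells and to 70560, 12400 and 53140 CPM in KO cells, so isolation 2 was the lowest in both, and the part of this in the calls was not tested.

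**Figure D1:**
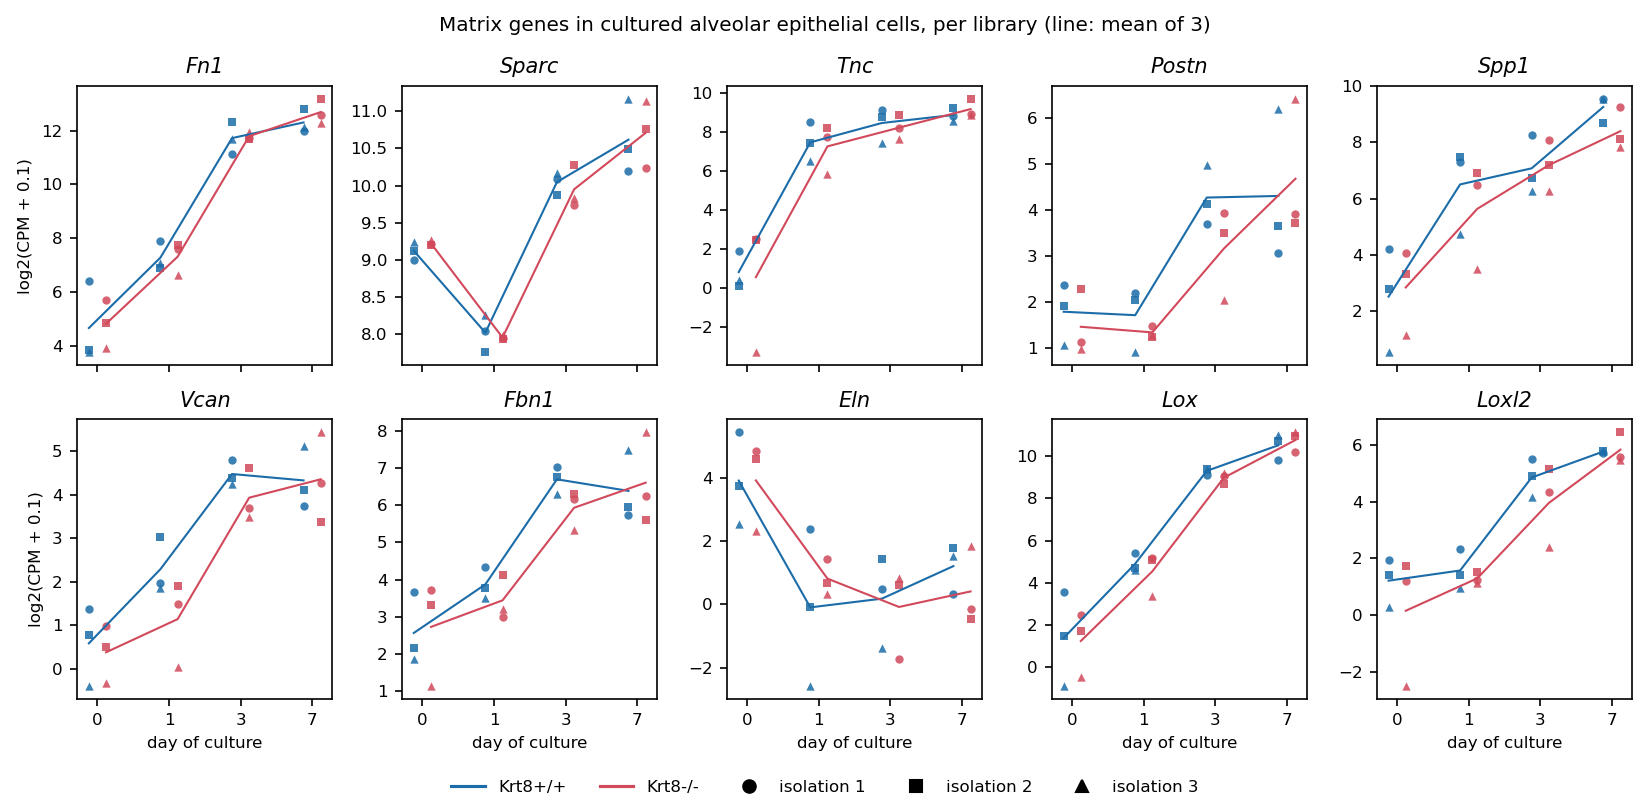
Level of each member, as log2(CPM + 0.1) on the vertical axis with a scale of its own per panel, against the day of culture, for Krt8+/+ (blue) and Krt8-/- (red) cells; symbols are the 3 isolations and lines join the means of 3 libraries. Tnc rose between days 0 and 1, Fn1 and Lox went on rising to day 3, Sparc dipped on day 1, and Eln lay lower on days 1, 3 and 7 than on day 0.

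**Figure D2:**
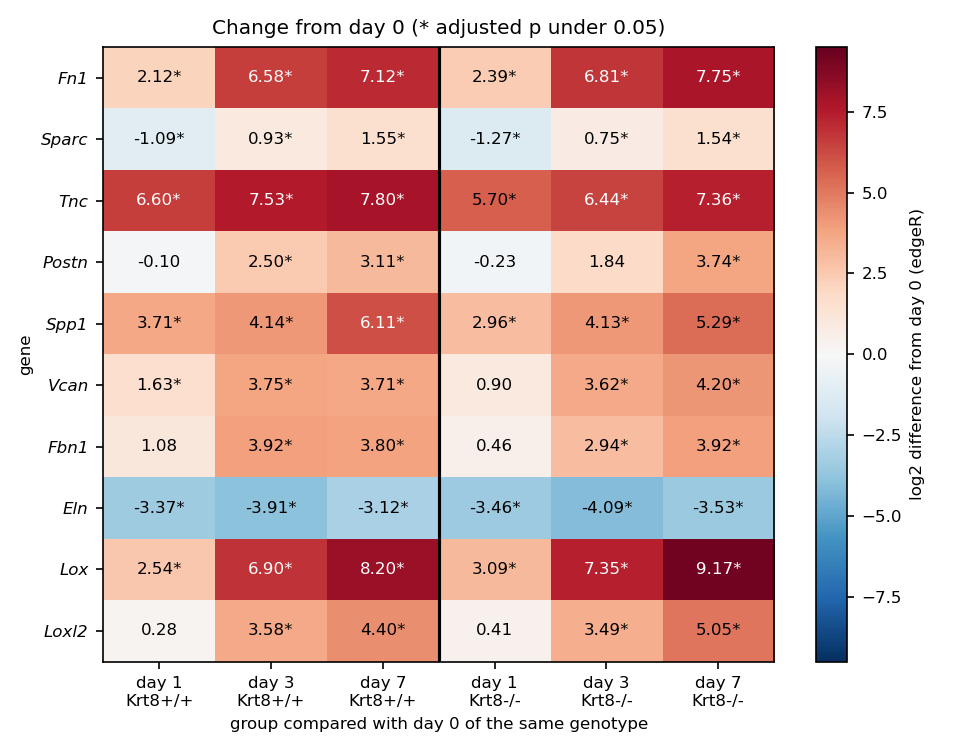
Log2 difference of each member (rows) from day 0 of the same genotype on days 1, 3 and 7 (columns), from edgeR; red is higher, blue is lower, and asterisks mark an adjusted p under 0.05. The values run from -4.09 for Eln to 9.17 for Lox, both in Krt8-/- cells.

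The second comparison set consecutive days against each other. Between days 1 and 3, 7 of 10 members rose in WT cells (26.3% of all genes called, 14.4% higher), all except Tnc, Spp1 and Eln, and 6 rose in KO cells (23.6% called, 13.4% higher), where Postn was not called either (adjusted p = 0.0697 in edgeR, 0.0241 in DESeq2). The median log2 difference was 2.36 in WT and 2.27 in KO cells, against -0.05 and -0.03 for all genes. Between days 3 and 7 in WT cells edgeR called 0 members (6.58% of all genes), with 3 at an unadjusted p under 0.05, and DESeq2 also called 0. The median log2 difference was 0.62, against -0.01 for all genes, and in KO cells 0.96 against 0.00. In KO cells 1 member was called between days 3 and 7 (10.5% of all genes called, 4.4% higher), namely Sparc. That call was lost when any 1 isolation was left out, with adjusted p = 0.072 without isolation 1, 0.0954 without isolation 2 and 0.286 without isolation 3 in edgeR. With isolation as a block, edgeR called 1 member in WT cells, Spp1, at 1.97 against 2.47 on the log2 scale without and with the block (adjusted p = 0.0109 with it), and 3 in KO cells, Sparc, Lox (adjusted p = 0.0422) and Loxl2 (0.0135).

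Fn1 encodes fibronectin, an adhesion glycoprotein that assembles into fibrils at integrin receptors. In WT cells it was counted at 83.7, 14.1 and 13.3 CPM in isolations 1 to 3 on day 0, at 236, 118 and 133 on day 1, at 2267, 5155 and 3313 on day 3 and at 4069, 7101 and 4512 on day 7. In KO cells the values were 51.8, 28.7 and 14.8 CPM on day 0, 191, 212 and 97.9 on day 1, 3421, 3327 and 3953 on day 3 and 6203, 9359 and 5001 on day 7. Every later library lay above every day 0 library of its genotype, and isolation 1 was the highest of day 0 in both genotypes. The largest step was between days 1 and 3, by 4.46 on the log2 scale in WT cells (SE 0.63, edgeR adjusted p = 3.64e-05) and by 4.42 in KO cells (SE 0.63, 4.79e-05). From day 0 to day 7 the fitted change was 139.5-fold in WT cells (log2 7.12, SE 0.72, adjusted p = 4.59e-08) and 216-fold in KO cells (log2 7.75, SE 0.74, 2.1e-08).

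Sparc, a calcium-binding glycoprotein that binds collagen, was the member already abundant in fresh AEC2s. WT libraries held 513, 557 and 604 CPM on day 0, 263, 216 and 307 on day 1, 1089, 941 and 1155 on day 3 and 1173, 1435 and 2304 on day 7. KO libraries held 591, 586 and 614 CPM on day 0, 247, 244 and 253 on day 1, 856, 1237 and 912 on day 3 and 1201, 1730 and 2262 on day 7. It was the only member that fell first and then rose: every day 1 library lay below every day 0 library, and every day 3 and day 7 library above. The fall to day 1 was by 1.09 in WT cells (SE 0.23, edgeR adjusted p = 0.000401) and by 1.27 in KO cells (SE 0.23, 0.000101) on the log2 scale. The rise from day 0 to day 7 was 1.55 in WT (SE 0.23, 6.52e-06) and 1.54 in KO cells (SE 0.23, 7.37e-06), or 2.93-fold and 2.90-fold. On day 3 in KO cells the log2 difference of 0.75 from day 0 (adjusted p = 0.00813) was no longer called without isolation 2 (0.62, adjusted p = 0.125).

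Tnc encodes tenascin-C, a large antiadhesive glycoprotein that is scarce in healthy adult tissue and appears in wounds. It was near the limit of counting on day 0, at 3.62, 0.975 and 1.22 CPM in WT libraries and at 5.54, 5.37 and 0 CPM in KO libraries. The library at 0 had a total that puts its upper limit, 3 counts, at 0.232 CPM, which covers counting error only. On day 1 the WT libraries held 356, 169 and 89.1 CPM and the KO libraries 210, 293 and 56.6 CPM. Of the 10 members it had the largest difference from day 0 on day 1, by 6.60 on the log2 scale in WT cells (SE 0.89, edgeR adjusted p = 3.85e-06) and 5.70 in KO cells (SE 0.84, 1.21e-05). On day 3 the WT libraries held 562, 432 and 174 CPM and the KO libraries 289, 456 and 195 CPM, and on day 7 they held 441, 601 and 376 CPM and 488, 827 and 463 CPM. The means were 390 ± 198 CPM on day 3 and 473 ± 116 on day 7 in WT cells (SD, n = 3), and 313 ± 132 and 593 ± 203 in KO cells. In WT cells day 3 overlapped both day 1 and day 7, while every day 7 library lay above every day 1 library in both genotypes. The log2 difference of 0.93 between days 1 and 3 in WT cells was not called (95% interval -0.45 to 2.304).

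Postn encodes periostin, a matricellular protein that binds collagen and integrins and is widely used as a marker of activated fibroblasts. It was low on days 0 and 1, at 1.99 to 5.09 CPM and 1.77 to 4.48 CPM in WT libraries and at 1.85 to 4.76 and 2.27 to 2.69 CPM in KO libraries. On day 3 it stood at 12.9, 17.5 and 31.5 CPM in WT and 15.3, 11.3 and 4.01 CPM in KO libraries, and on day 7 at 8.30, 12.4 and 73.8 CPM in WT and 14.98, 13.0 and 86.1 CPM in KO libraries. Isolation 3 was far above the others on day 7 in both genotypes. The day 7 difference from day 0 was 3.11 in WT (SE 0.81, edgeR adjusted p = 0.00253) and 3.74 in KO cells (SE 0.84, 0.000682) on the log2 scale. On day 3 it was 2.497 in WT cells (SE 0.80, adjusted p = 0.012) and 1.84 in KO cells (SE 0.80), where edgeR did not call it (adjusted p = 0.0616). DESeq2 called the KO difference (0.0237), as did edgeR without isolation 3 (0.00126), and the WT call was lost without isolation 2 (0.0565).

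Spp1 encodes osteopontin, a secreted phosphoprotein ligand of integrins and CD44. WT libraries held 18.4, 6.82 and 1.33 CPM on day 0, 159, 177 and 26.5 on day 1, 307, 105 and 76.4 on day 3 and 743, 414 and 754 on day 7. KO libraries held 16.6, 9.82 and 2.09 CPM on day 0, 89.2, 121 and 11.2 on day 1, 274, 147 and 77.2 on day 3 and 609, 276 and 230 on day 7. Isolation 3 was the lowest on days 0, 1 and 3 in both genotypes, and the day 1 KO libraries overlapped those of day 0. The rise by day 7 was 6.11 on the log2 scale in WT (SE 1.04, edgeR adjusted p = 4.01e-05) and 5.29 in KO cells (SE 1.01, 0.000135). The day 1 rises, 3.71 in WT (adjusted p = 0.00249) and 2.96 in KO cells (0.0112), were not called without isolation 2 (0.0724 and 0.159).

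Vcan encodes versican, a large proteoglycan that binds hyaluronan. WT libraries held 2.48, 1.63 and 0.664 CPM on day 0, 3.82, 8.11 and 3.53 on day 1, 27.5, 20.7 and 19.0 on day 3 and 13.3, 17.2 and 34.7 on day 7. KO libraries held 1.87, 1.32 and 0.695 CPM on day 0, 2.69, 3.63 and 0.934 on day 1, 12.9, 24.2 and 11.1 on day 3 and 19.0, 10.2 and 43.1 on day 7. Day 3 and day 7 libraries lay above all of day 0, and days 3 and 7 overlapped each other. The log2 difference from day 0 was 3.75 on day 3 (SE 0.61, edgeR adjusted p = 3e-05) and 3.71 on day 7 (SE 0.61, 2.72e-05) in WT cells, and 3.62 and 4.20 in KO cells (5.52e-05 and 8.31e-06). On day 1 it was called in WT cells (1.63, adjusted p = 0.0274), though not without isolation 2 (0.174), and not in KO cells (0.90, adjusted p = 0.242).

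The elastic fibre genes went opposite ways. Fbn1, the main component of microfibrils, stood at 12.5, 4.33 and 3.54 CPM on day 0 and at 20.1, 13.5 and 11.2 CPM on day 1 in WT libraries, with overlap. It rose to 132, 108 and 79.1 CPM on day 3 and lay at 53.2, 61.6 and 180 CPM on day 7. In KO libraries it was at 13.1, 9.82 and 2.09 CPM on day 0, 7.89, 17.2 and 9.11 on day 1, 72.3, 79.1 and 40.1 on day 3 and 75.8, 49.1 and 252 on day 7. As with Postn and Vcan, isolation 3 was the highest on day 7 in both genotypes. The log2 difference of day 7 from day 0 was 3.80 in WT (SE 0.69, edgeR adjusted p = 8.34e-05) and 3.92 in KO cells (SE 0.69, 5.92e-05), and day 1 was not called in either (adjusted p = 0.171 and 0.577).

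Eln encodes tropoelastin, the soluble precursor of elastin, and was the single member to fall and stay down. WT libraries held 43.4, 13.3 and 5.76 CPM on day 0, 5.14, 0.836 and 0.0679 on day 1, 1.31, 2.59 and 0.284 on day 3 and 1.16, 3.32 and 2.78 on day 7. KO libraries held 28.6, 24.1 and 4.87 CPM on day 0, 2.60, 1.49 and 1.17 on day 1, 0.206, 1.45 and 1.69 on day 3 and 0.801, 0.623 and 3.51 on day 7. Every culture library lay below every day 0 library of its genotype, while the day 0 libraries themselves spread widely, with isolation 1 highest and isolation 3 lowest. The counts were few: WT libraries held 858 together on day 0, 683 of them in isolation 1, and 81, 65 and 99 on days 1, 3 and 7. KO libraries held 699 on day 0 and 67, 51 and 77 on the later days. The log2 differences on days 1, 3 and 7 were -3.37, -3.91 and -3.12 in WT cells (edgeR adjusted p = 0.00919, 0.00383 and 0.0122) and -3.46, -4.09 and -3.53 in KO cells (0.00925, 0.0033 and 0.00635). The calls depended on the isolations used: the WT day 7 difference was -1.64 without isolation 1 (adjusted p = 0.201), and without isolation 2 all 3 KO differences missed the threshold (0.124, 0.0541 and 0.117), as did those of days 1 and 7 in WT cells (0.1 and 0.0643). Without isolation 1 the WT day 3 difference missed it too (adjusted p = 0.0544).

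Lox and Loxl2 encode amine oxidases that start the crosslinking of collagen and elastin. Lox was counted at 11.6, 2.71 and 0.443 CPM in WT libraries on day 0, at 42.7, 25.9 and 24.2 on day 1, at 551, 680 and 673 on day 3 and at 892, 1705 and 2070 on day 7. In KO libraries it was counted at 5.47, 3.24 and 0.618 CPM on day 0, 35.5, 34.2 and 10.4 on day 1, 541, 405 and 590 on day 3 and 1173, 1999 and 2257 on day 7. The ranges of the 4 days did not overlap in either genotype. Its change to day 7 was the largest of the 10, at 8.20 on the log2 scale in WT (SE 0.81, edgeR adjusted p = 3.45e-08) and 9.17 in KO cells (SE 0.85, 1.42e-08), from day 0 totals of 212 and 116 counts over 3 libraries. The day 1 call in WT cells (2.54, adjusted p = 0.00282) was lost without isolation 2 (0.0543).

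Unlike Lox, Loxl2 was not called higher than on day 0 until day 3, and whether the courses differ was not tested. WT libraries held 3.75, 2.60 and 1.11 CPM on day 0, 4.99, 2.59 and 1.83 on day 1, 44.9, 29.6 and 18.1 on day 3 and 53.1, 55.9 and 54.8 on day 7. KO libraries held 2.23, 3.24 and 0.0773 CPM on day 0, 2.24, 2.79 and 2.10 on day 1, 20.2, 35.3 and 5.14 on day 3 and 47.9, 87.8 and 44.3 on day 7. Days 0 and 1 overlapped, and all day 7 libraries lay above those of day 3. The log2 difference from day 0 was 0.28 on day 1 in WT cells (edgeR adjusted p = 0.747), 3.58 on day 3 (SE 0.67, 0.000142) and 4.40 on day 7 (SE 0.69, 1.49e-05), and in KO cells 0.41 (0.663), 3.49 (0.000259) and 5.05 (4.49e-06). Between days 1 and 3 in KO cells its rise of 3.08 (adjusted p = 0.00216) missed the threshold without isolation 1 (0.0543) or 2 (0.0784), as did that of Fbn1 (2.48, adjusted p = 0.0089; 0.0887 and 0.0541). The Postn and Vcan rises between these days in WT cells missed it without isolation 2 (0.0958) and without isolation 1 (0.112).

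The third comparison was of Krt8-/- with Krt8+/+ cells, and no difference was detected in any member. edgeR called 0 of 10 members on day 0 (0.0277% of all genes called), 0 on day 1 (0.0166%), 0 on day 3 (0.0166%), 0 on day 7 (0.0166%) and 0 over days 1 to 7 (0.0277%). In each of these contrasts 0 members reached an unadjusted p under 0.05. DESeq2 called 0 as well. The test of whether the genotype difference changed with the day also called 0 members, with 0 at an unadjusted p under 0.05 (0.00554% of all genes called). The median log2 difference of the members was -0.18, -0.30, -0.31 and 0.18 on days 0, 1, 3 and 7, against -0.00, -0.01, 0.00 and 0.00 for all genes. Over days 1 to 7 the median log2 difference of the members was -0.32, against 0.00 for all genes. A missed threshold does not show that the genotypes were alike, and the intervals give the sizes that the data leave possible.

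**Figure D3:**
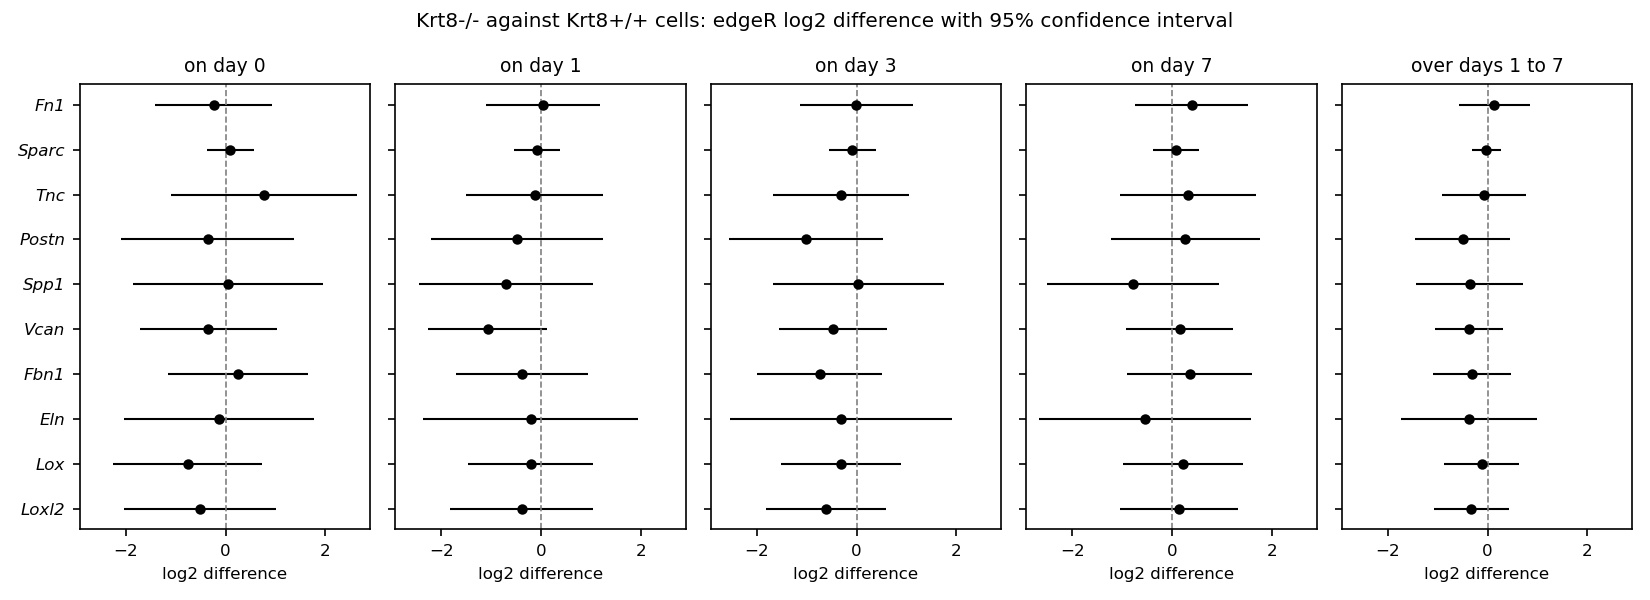
Log2 difference of Krt8-/- from Krt8+/+ cells for each member on days 0, 1, 3 and 7 and over days 1 to 7, from edgeR; points are estimates, bars are 95% confidence intervals, and the dashed line marks no difference. Every interval includes 0, and those of Sparc are the narrowest.

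For Sparc the interval was narrow, with a log2 difference over days 1 to 7 of -0.03 (95% interval -0.32 to 0.26). For Fn1 it was 0.13 (-0.57 to 0.84), for Lox -0.12 (-0.87 to 0.64), for Tnc -0.07 (-0.92 to 0.78) and for Loxl2 -0.32 (-1.08 to 0.43). Fbn1 and Vcan, with the most alike courses, lay at -0.32 (-1.10 to 0.47) and -0.37 (-1.05 to 0.31). The widest were those of Postn at -0.50 (-1.46 to 0.46), Spp1 at -0.36 (-1.43 to 0.71) and Eln at -0.37 (-1.74 to 1.00). Spp1 was lower in KO cells in 3 of 3 isolations on day 1, at 0.563, 0.684 and 0.423 of the WT level, and on day 7, at 0.820, 0.667 and 0.305, but not on day 3, at 0.895, 1.40 and 1.01. Vcan was lower in 3 of 3 on day 1, at 0.705, 0.448 and 0.265 of the WT level, with a log2 difference of -1.07 (95% interval -2.27 to 0.13). Fn1 on day 7 was higher in KO cells in 3 of 3 isolations, at 1.52, 1.32 and 1.11 times the WT level, with a log2 difference of 0.39 (-0.75 to 1.53). Over the 10 members and 4 days, KO cells lay on 1 side of WT cells in all 3 isolations in 10 of 40 cases, against 26.7% over all genes tested. They were higher in 5, Sparc on day 0 and Fn1, Tnc, Postn and Lox on day 7, and lower in 5, Spp1 and Vcan on day 1, Fbn1 and Lox on day 3 and Spp1 on day 7. None of these differences passed the test.

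The isolations differed from each other in the members and in the markers of other cell types. On day 0, 9 of 10 members were highest in isolation 1 in WT cells and 7 of 10 in KO cells, and 8 and 9 were lowest in isolation 3. Sparc, at 513 to 614 CPM, did not share this order, and the share of all genes with it was not counted. Of the 8 AEC1 markers, 6 were highest in isolation 1 and 2 in isolation 3 in each genotype. Of the 8 AEC2 markers, 3 were highest in isolation 1 in each genotype. The 10 fibroblast markers moved with the members: their summed level was 1108, 525 and 302 CPM in isolations 1 to 3 of WT cells and 802, 636 and 341 CPM in KO cells, and 10 and 7 of the 10 were highest in isolation 1. Itga8, an integrin of fibroblasts and pericytes, stood at 57.7, 6.17 and 3.76 CPM in the WT libraries, and Pdgfra, a fibroblast receptor kinase, at 51.9, 4.77 and 2.44 CPM. Thy1, another fibroblast marker, was at 0 to 0.254 CPM on day 0. Of the 8 pericyte and smooth muscle markers 7 were highest in isolation 1 in each genotype, with sums of 60.0, 31.5 and 14.4 CPM in WT libraries, and so were 4 of 4 mesothelial markers. Of the 8 macrophage markers, 7 were highest in isolation 1 in WT cells and 6 in KO cells, with the receptor Csf1r at 18.2, 14.5 and 9.74 CPM in WT libraries, while Lyz1, which AEC2s also express, set their sum. The part of these cells in the day 0 levels of Fn1, Eln, Lox and the other members was not tested.

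**Figure D4:**
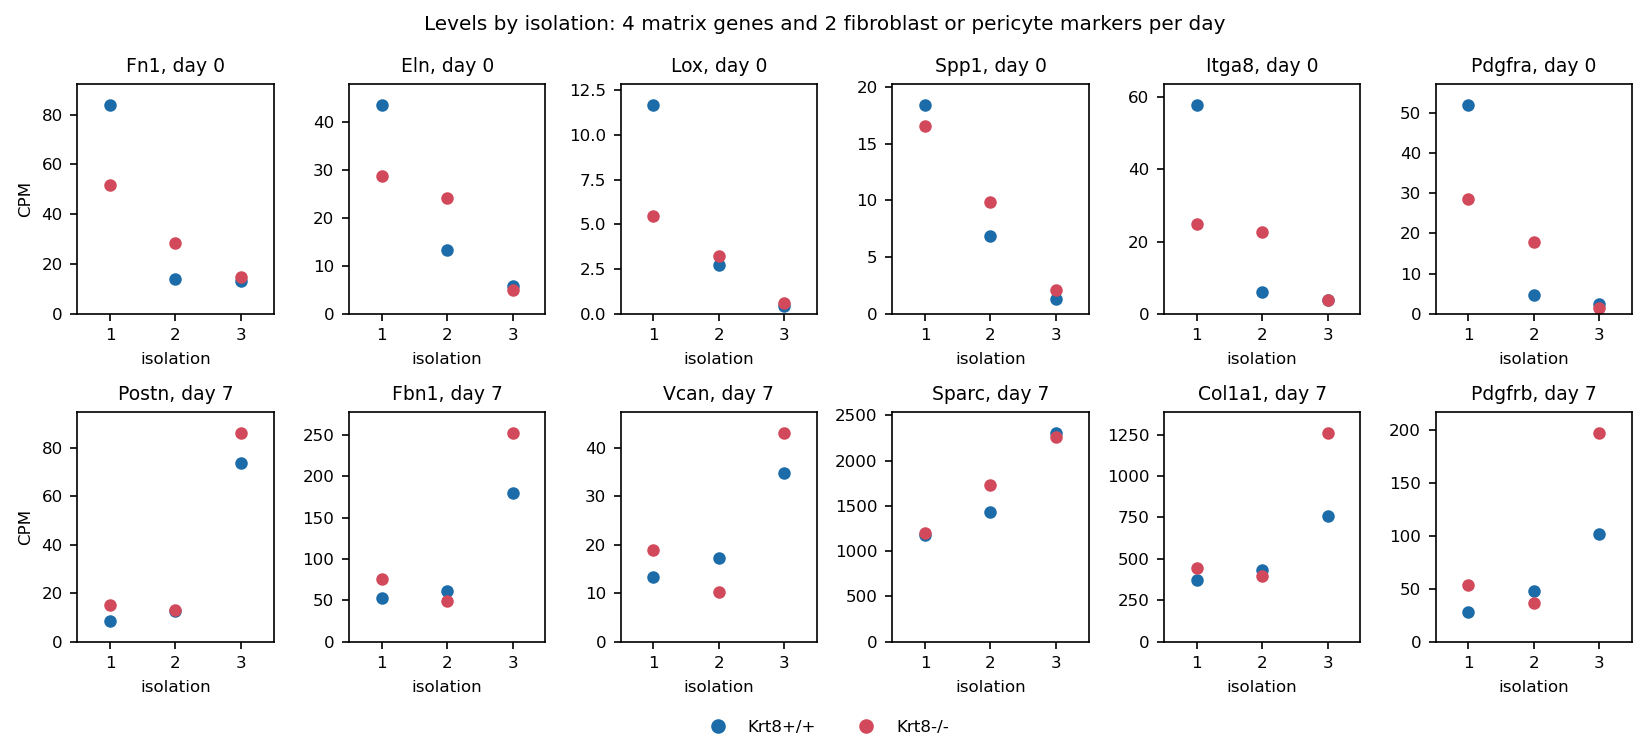
CPM (vertical axes from 0) in isolations 1 to 3 for 4 members and 2 markers of fibroblasts or pericytes, on day 0 (top) and day 7 (bottom), in Krt8+/+ (blue) and Krt8-/- (red) cells; the genes were chosen after their values were seen. The genes shown differ by day. Those of day 0 are Fn1, Eln, Lox, Spp1, Itga8 and Pdgfra, and those of day 7 are Postn, Fbn1, Vcan, Sparc, Col1a1 and Pdgfrb. On day 0 the highest library of each gene shown is that of isolation 1, and on day 7 that of isolation 3. Not all genes of day 0 took this order on day 7, when Fn1 was highest in isolation 2 in both genotypes and Itga8 in isolation 1 in WT cells.

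On day 7, isolation 3 was instead the highest for 6 of 10 members in each genotype, among them Postn, Fbn1, Vcan, Sparc and Lox. The share of all genes with this order was not counted. Of the 8 AEC1 markers, 8 were highest in isolation 3 in WT cells. In KO cells 5 of them were highest in isolation 2 and 2 in isolation 3. The fibroblast markers summed to 877, 961 and 1814 CPM in the WT isolations and to 910, 807 and 2990 CPM in the KO isolations, with Col1a1 at 375, 431 and 760 CPM in WT and 443, 398 and 1260 CPM in KO libraries. Of these 10 markers 6 in WT and 7 in KO cells were highest in isolation 3, while Dcn (26.6, 19.3 and 9.68 CPM), Lum (1.97, 0.664 and 0.597 CPM) and Itga8 (4.49, 1.74 and 2.19 CPM) were highest in isolation 1 in WT cells. Pdgfrb, a pericyte and fibroblast receptor, stood at 27.7, 48.0 and 102 CPM in WT and 53.2, 36.9 and 197 CPM in KO libraries. The 8 pericyte and smooth muscle markers did not share this order: 5 were highest in isolation 2 in each genotype, 2 in WT and 3 in KO cells in isolation 3, and their sums were 2367, 4348 and 4019 CPM in WT and 3393, 5028 and 4506 CPM in KO libraries. Epcam was lowest in isolation 3, at 137 CPM in WT and 134 CPM in KO cells. The 5 epithelial markers summed to 6161, 7187 and 4288 CPM in WT and 5056, 6000 and 2844 CPM in KO libraries. Among them Nkx2-1 went the other way in WT cells, at 57.2, 65.3 and 76.1 CPM in isolations 1 to 3. Fn1, Tnc and Loxl2 were highest in isolation 2 in both genotypes. The list did not move as one from day 0 to day 7: 3 fibroblast markers were higher and 5 lower of 10 in WT cells, with Col1a1 from 53.9 to 522 CPM and Dcn, the proteoglycan decorin, from 211 to 18.5 CPM. Of the 7 pericyte and smooth muscle markers tested, 7 were higher on day 7 in both genotypes, led in level by Acta2, from 14.0 to 1678 CPM in WT cells. Rgs5, the marker of that list that missed the filter, had few counts and went the other way. Its mean went from 0.636 to 0.106 CPM in WT cells and from 0.389 to 0.154 CPM in KO cells. Of 4 mesothelial markers 1 was higher on day 7 in each genotype and 3 in WT and 2 in KO cells were lower, and of 8 macrophage markers 0 were higher and 1 lower in each. The mesothelial sum nevertheless rose, from between 66.3 and 205 CPM on day 0 to between 988 and 1873 CPM on day 7 in WT libraries. In KO libraries it lay between 92.4 and 201 CPM on day 0 and between 879 and 2454 CPM on day 7. The endothelial markers summed to no more than 4.15 CPM on day 7, with 3 of the 3 tested lower in each genotype. How much of the rise of the members came from fibroblasts or pericytes was not tested.

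By likeness of course, measured as the mean absolute difference over the 8 groups of log2 CPM centred on the mean of each gene, the nearest of 18046 genes to each member were named. The closest pair of members was Fbn1 and Vcan (0.185), followed by Postn and Fbn1 (0.462) and Fn1 and Lox (0.477). Sparc was nearest to Cercam (0.0829), Igfbp7 (0.117) and Castor1 (0.118), and among the nearest to Tnc were Bcat1 (0.358) and the collagenase Mmp13 (0.409). Fn1 was nearest to Olfm2 (0.32), Wnt10a (0.336) and Ncam1 (0.399), and Lox to Grem1 (0.43), an antagonist of bone morphogenetic proteins, Fam198b (0.472) and Fn1. Postn was nearest to Selenom (0.203), Armcx4 (0.211) and Myh10 (0.216), Spp1 to Elovl4 (0.268), Psrc1 (0.279) and Prrx1 (0.307), and among the nearest to Loxl2 were Foxc2 (0.184) and Pde3a (0.245). For Eln they were Matn4 (0.248), Sord (0.252) and Lpar4 (0.259), for Fbn1, after Vcan, Rhoj (0.197) and Tspan6 (0.199), and for Vcan, besides Fbn1, Tro (0.14) and Pde10a (0.189). All courses come from the same 24 libraries, so the values describe likeness and carry no test.

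Of 90 other genes of matrix assembly, 84 were tested. In WT cells 26 of 84 were higher and 23 of 84 lower on day 1. On day 3 there were 42 and 22 of 84, and on day 7 there were 49 and 22 of 84. The shares of all genes called higher and lower were 26.2% and 28.5%, 26.1% and 27.8%, and 28.6% and 30.2%. The medians of the 84 were -0.05, 1.03 and 1.62 on the log2 scale. In KO cells 24 and 23, 40 and 23, and 49 and 23 of 84 were higher and lower on the same days. The shares of all genes were 23.7% and 26.9%, 25.4% and 26.6%, and 28.6% and 29.9%. Between genotypes over days 1 to 7, edgeR called 0 of 84 (3 at an unadjusted p under 0.05), and DESeq2 called 0.

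**Figure D5:**
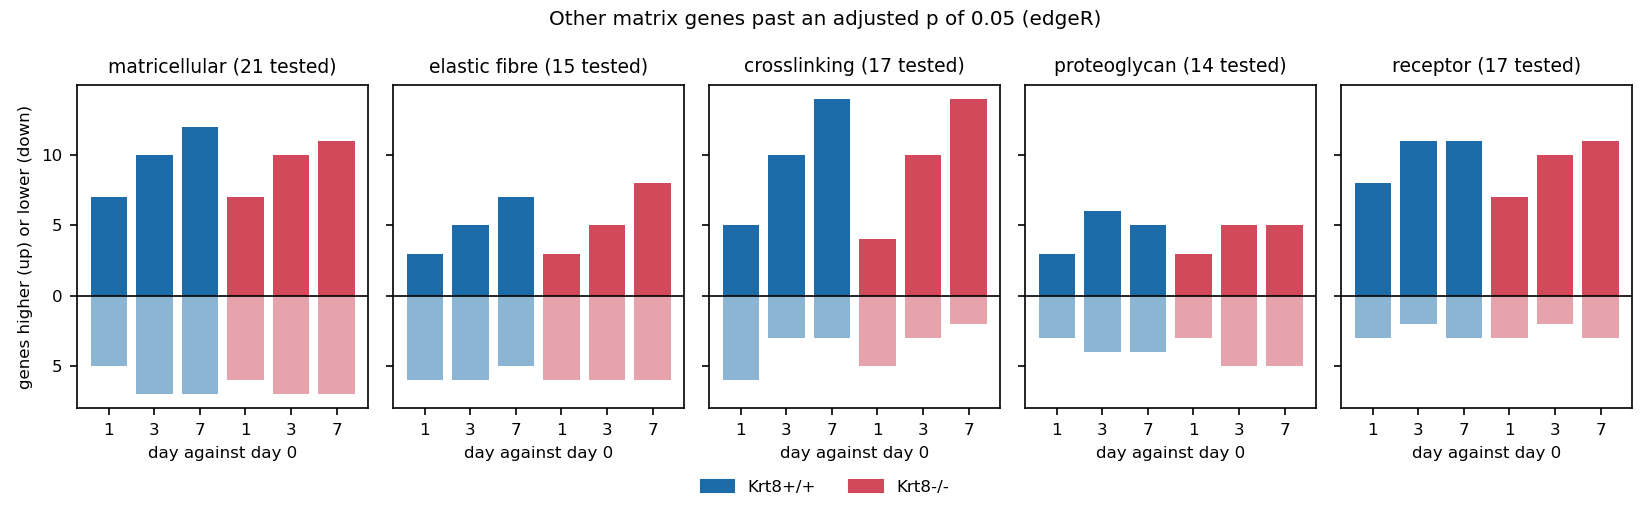
Number of other matrix genes past an adjusted p of 0.05 in edgeR, higher (solid bars, up) or lower (pale bars, down) than on day 0, by list and by day, in Krt8+/+ (blue) and Krt8-/- (red) cells. The crosslinking list had 14 higher genes of 17 on day 7 in both genotypes, and the proteoglycan list 5 of 14, against 28.6% of all genes in each genotype.

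Among 21 other matricellular genes, 12 were higher and 7 lower on day 7 in WT cells. In that contrast, also used for the lists that follow, 28.6% of all genes were higher and 30.2% lower. Ccn2, the secreted CCN protein known as CTGF, went from 10.5 ± 8.57 to 3218 ± 201 CPM (SD, n = 3; log2 8.22, edgeR adjusted p = 1.82e-10), and Ccn4 from 0.195 to 92.0 CPM. Sparcl1, the closest relative of Sparc in the list, fell from 21.6 ± 19.97 to 0.111 CPM (log2 -7.42, adjusted p = 2.42e-05), opposite to Sparc itself. Thbs3, a thrombospondin, fell from 168 to 2.503 CPM.

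Of 15 other elastic fibre genes 7 were higher and 5 lower. Fbln2 rose from 22.1 ± 11.4 to 1659 ± 536 CPM (log2 6.22, edgeR adjusted p = 4.61e-10) and Ltbp2, which binds fibrillin-1, from 3.20 to 206 CPM. Fbn2, the other fibrillin, fell from 22.0 to 0.174 CPM while Fbn1 rose, and the microfibril gene Mfap4, which is also among the fibroblast markers, fell from 27.5 to 0.199 CPM.

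The 17 crosslinking and collagen-modifying genes had 14 higher and 3 lower. Plod2, a lysyl hydroxylase, rose from 0.999 to 70.8 CPM (log2 5.99, edgeR adjusted p = 2.85e-08) and P4ha3, a prolyl hydroxylase subunit, from 0.136 to 15.01 CPM. P3h2 fell from 15.9 to 3.18 CPM, and P4ha1 from 264 to 158 CPM (log2 -0.74, adjusted p = 0.0196), which was not called in KO cells (-0.56, adjusted p = 0.0723).

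Of 14 proteoglycan and hyaluronan genes 5 were higher and 4 lower. Has2, the hyaluronan synthase whose product versican binds, had 2 counts in the 3 day 0 libraries and 4811 on day 7, or 112 ± 37.6 CPM, and Cspg4, also a pericyte marker, rose from 0.886 to 41.0 CPM. Dcn, also among the fibroblast markers, fell by 3.51 (edgeR adjusted p = 1.39e-07) and Prelp by 3.61 (0.00384) on the log2 scale. Among 17 receptors, 11 were higher and 3 lower: Itga5, the alpha chain of the main fibronectin receptor, rose from 17.9 ± 3.16 to 530 ± 171 CPM (log2 4.88, adjusted p = 1.07e-08) and the syndecan Sdc3 from 1.70 to 272 CPM, while Sdc4 fell from 541 to 107 CPM. Itga8 fell from 22.5 to 2.81 CPM in WT cells (adjusted p = 0.0357) and was not called in KO cells (0.114).

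Annotated genes share exon bases with 7 members: Fn1 with Apol7d, Tnc with 8030451A03Rik, Eln with Gm30003, Fbn1 with Gm9913, Lox with AC161119.1 and Loxl2 with Gm27177 on the opposite strand, and Spp1 with Gm42793 and Loxl2 also with Mir6950 on the same strand. Whether the counting used strand is not given in the sources used here, so reads from these partners cannot be told apart from those of the members. In GRCm38 the members lie on chromosome 1 (Fn1, 71585520 to 71653200), chromosome 2 (Fbn1, 125300594 to 125507993), chromosome 3 (Postn, 54361109 to 54391037), chromosome 4 (Tnc, 63959785 to 64047015), chromosome 5 (Spp1, 104435118 to 104441050, and Eln, 134702593 to 134747323), chromosome 11 (Sparc, 55394500 to 55423183), chromosome 13 (Vcan, 89655312 to 89742509), chromosome 14 (Loxl2, 69609068 to 69695834) and chromosome 18 (Lox, 52516067 to 52529867). Their identifiers in the table are ENSMUSG00000026193 (Fn1), ENSMUSG00000018593 (Sparc), ENSMUSG00000028364 (Tnc), ENSMUSG00000027750 (Postn), ENSMUSG00000029304 (Spp1), ENSMUSG00000029675 (Eln), ENSMUSG00000027204 (Fbn1), ENSMUSG00000024529 (Lox), ENSMUSG00000034205 (Loxl2) and ENSMUSG00000021614 (Vcan).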

How the data were processed

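RNA-seq of 24 libraries was analysed, 3 isolations of each genotype and day, grouped by the labels. The deposited table holds whole-number counts per gene made by the authors. Their processing notes name cutadapt 2.3, STAR 2.7.8a, RSEM 1.3.3 and the build GRCm38, and whether the whole numbers are rounded RSEM estimates or strand was used is not given in the sources used here. The table has 55426 rows, of which 5 are reporters with 0 counts, and 55154 identifiers matched a symbol in GENCODE M21. Library totals were 10184439 to 19483386 counts, and limits from a count of 0 (3 counts) cover counting error only.

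Counts were fitted with edgeR 4.0.16 (R 4.3.3, limma 3.58.1) by its quasi-likelihood test over all 24 libraries with TMM factors, after filterByExpr (minimum count 10, minimum total 15) had kept 18046 genes. There were 16 residual degrees of freedom, and p-values were adjusted by Benjamini-Hochberg over all genes, with a threshold of 0.05. The KO and WT difference over days 1 to 7 weighted days 1, 3 and 7 by 0.167, 0.5 and 0.333. Levels are CPM on TMM-scaled totals, and per kilobase of merged exons where genes are compared. The fit was tested on simulated data.

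The labels give each replicate number 1 batch date, and the design text ties the dates to separate isolations, so numbers pair the libraries. Deviations of same-numbered libraries from their group means correlated at 0.0295 to 0.548 over 30 pairs, and isolation as a block was an alternative. The others were DESeq2 1.42.0, its size factors, no filter on low counts, only the compared libraries, and each isolation left out.

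The members and the gene lists were chosen with earlier results of these data known. Of each other matrix list, up to 2 genes in each direction were named, those with the largest change on day 7 in WT cells past the threshold and in 1 direction in all 3 isolations, and for each member the 3 genes with the nearest course, of which 1 for Tnc and 1 for Loxl2 are not reported here. The lists of cell markers were AEC2, AEC1, epithelium, fibroblast, pericyte and smooth muscle, mesothelium, macrophage and endothelium. Tables and plots were made with Python 3.11.15, pandas 2.3.3 and matplotlib 3.10.9.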

Additional observations from a re-analysis of the deposited data

How the results depend on the processing

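Of the counts of called members or other matrix genes under an alternative, 217 of 232 stayed within 1.5 times the count given above. The exceptions were the following, and the cause was not tested. Members called between days 3 and 7 numbered 0 in WT cells, 1 with isolation as a block and 1 (Lox) when only the compared libraries were fitted, and in KO cells 1, 3 without the filter on low counts, 3 with the block, 2 with only the compared libraries (Lox and Fn1, with Sparc lost) and 0 to 0 when an isolation was left out. With an isolation left out, members called on day 1 in WT cells ran from 3 to 7, and other matrix genes called between days 3 and 7 from 3 to 9 in WT cells (8 with all isolations, 14 by DESeq2) and from 9 to 14 in KO cells (23 with all). The block changed no other count by over 1.5 times and no other call of a member.

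Of the single differences of members, 1116 of 1200 kept their direction and side of the threshold, 23 lost and 16 gained a call, and 45 changed sign, none of which had been called. With the block, Fn1 for KO against WT on day 3 was 0.0076, and with only the compared libraries Postn for day 1 against day 0 in WT was 0.027. With each isolation left out in turn, the lowest and highest log2 values of the others were, for KO against WT on day 0, Fn1 -0.55 to 0.66, Postn -0.88 to 0.19, Spp1 -0.14 to 0.50, Eln -0.56 to 0.60, Fbn1 -0.13 to 0.56 and Lox -1.07 to 0.21. On day 1, they were Fn1 -0.35 to 0.30, Sparc -0.19 to 0.035, Tnc -0.73 to 0.44, Eln -0.58 to 1.61, Fbn1 -0.87 to 0.095, Lox -0.55 to 0.023 and Loxl2 -0.63 to 0.16. On day 3, they were Fn1 -0.22 to 0.38, Sparc -0.36 to 0.044, Tnc -0.63 to 0.10, Spp1 -0.14 to 0.31 and Eln -1.20 to 0.23. On day 7, they were Sparc -0.016 to 0.17, Eln -1.61 to 0.11, Loxl2 -0.23 to 0.32 and Vcan -0.055 to 0.36. Over days 1 to 7, they were Sparc -0.22 to 0.084, Tnc -0.37 to 0.26 and Eln -1.23 to 0.16. Day 1 against day 0 in WT cells gave Postn -0.15 to 0.0063. Day 7 against day 3 in WT cells gave Postn -0.55 to 0.87, Fbn1 -1.07 to 0.37 and Vcan -0.66 to 0.39. Day 1 against day 0 in KO cells gave Postn -0.50 to 0.43 and Loxl2 -0.091 to 0.98. Day 3 against day 1 in WT cells gave Spp1 -0.16 to 1.08 and Eln -1.68 to 1.70. Day 3 against day 1 in KO cells gave Eln -1.25 to 0.23. Day 7 against day 3 in KO cells gave Eln -0.23 to 1.17, Fbn1 -0.28 to 1.53 and Vcan -0.34 to 1.36.

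DESeq2's size factors in place of TMM factors left every count within 1.5 times. Over the 3 WT libraries of day 0 the fewest counts were those of Vcan, Tnc and Loxl2, at 60, 77 and 93. Totals were also low in other groups, with Vcan at 48 and Loxl2 at 64 in KO libraries of day 0 and Eln at 51 in those of day 3.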
